A study of Mus musculus with 12 samples.

Results

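The genes for collagens, laminins, matrix metalloproteinases (MMPs), their tissue inhibitors (TIMPs), ADAMTS and ADAMTS-like proteins and lysyl oxidase-like enzymes were followed in sorted mouse keratinocytes. Members were all genes whose annotated symbol began with Col, Lam, Mmp, Timp, Adamts or Lox and a chain or family number, and the rule used no measured value. This gave 77 of the 11287 genes on the table: 32 collagens, 21 MMPs, 7 laminin chains, 8 ADAMTS and ADAMTS-like genes, 4 TIMPs, 4 lysyl oxidase-like genes and Cert1. Cert1, a ceramide transporter, was caught by the rule through an older symbol that resembles a collagen name, so 76 members encode matrix proteins or enzymes. Lama3, Lama5 and Lox were not analysed here.

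The epidermis rests on a basement membrane, a sheet of laminins and collagen IV to which basal keratinocytes attach through integrins. Collagen XVII and the laminin with the β3 chain belong to the hemidesmosome, and collagen VII anchors the sheet to the dermis, where fibrillar collagens and the collagens bound to their surface form most of the matrix. MMPs and ADAMTS enzymes cut matrix proteins, TIMPs block MMPs, and lysyl oxidases cross-link collagen fibres. Bulge stem cells of the hair follicle are known to lay down matrix that differs from that of the epidermis between follicles.

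The mice were females of 9.5 weeks, and RNA of keratinocytes from their dorsal epidermis was measured on Affymetrix exon arrays, which carry probe sets for single exons. In K14ΔNLef1 mice, the keratin 14 promoter, active in basal keratinocytes, drives a Lef1 without the amino-terminal stretch needed to bind β-catenin. Lef1 measured 12.66, 12.49 and 12.60 in K14ΔNLef1 and 6.30, 7.14 and 6.09 in WT CD34+ITGA6+ cells, and 12.71, 12.55 and 12.68 in K14ΔNLef1 and 6.24, 6.40 and 5.99 in WT ITGA6+ cells (log2 intensity), probe sets that do not separate the transgene from the mouse gene. The 4 groups were K14ΔNLef1 CD34+ITGA6+ cells, WT CD34+ITGA6+ cells, K14ΔNLef1 ITGA6+ cells and WT ITGA6+ cells, with 3 arrays each and 12 in all. CD34 marks bulge stem cells and ITGA6 (integrin α6) basal keratinocytes, and the methods describe the ITGA6+ gate as negative for CD34. The samples are labelled as biological replicates with no animal named, so p-values cover the spread between these arrays.

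The arrays went with their titles: Cd34 averaged 11.40 and 5.33 in CD34+ITGA6+ and ITGA6+ cells of K14ΔNLef1 mice, and 11.81 and 5.38 in those of WT mice (log2 intensity). A second label field names the 2 populations the other way round, and the titles were followed. All 6 basal keratinocyte markers lay above the array medians in every group, and of these only Itga6 was called, lower in the CD34+ITGA6+ gate in both genotypes. Of 6 suprabasal markers 2 were tested, Krt1 and Krt10, and both were called lower in that gate in WT. Dermal fibroblasts are the main source of fibrillar collagen in skin, and of 10 fibroblast markers 9 were on the table. The means of these markers over the list were 6.21 to 6.70 in K14ΔNLef1 and 6.41 to 6.58 in WT CD34+ITGA6+ arrays, and 5.94 to 6.44 in K14ΔNLef1 and 6.04 to 6.29 in WT ITGA6+ arrays. Of the 9, Vim, Fbln1 and Clec3b had group means above the array medians in both CD34+ITGA6+ groups, and 1 marker had in each ITGA6+ group. Dcn, Lum, Pdgfra and Dpt, which define fibroblasts, lay below the array medians in all 4 groups, and no endothelial or smooth muscle marker lay above them in any group. Of 7 immune markers, 3 lay above the medians in K14ΔNLef1 CD34+ITGA6+ cells and 0 in the other groups. Only 2 of the 7 were tested, and neither was called. Their means over the list were 6.30 to 7.11 in K14ΔNLef1 and 5.93 to 6.71 in WT CD34+ITGA6+ arrays, and 6.0 to 6.77 in K14ΔNLef1 and 5.61 to 5.87 in WT ITGA6+ arrays. Cd74, which was not tested, was higher in K14ΔNLef1 by 1.32 and 1.11 between genotypes in the 2 gates, and Tyrobp by 1.31 and 1.24 (adjusted p = 0.088 and 0.0572 by limma). The melanocyte marker Mitf and the adipocyte marker Fabp4 were higher in the CD34+ITGA6+ gate in both genotypes, Mitf by 2.70 in K14ΔNLef1 and 2.58 in WT (adjusted p = 2.45e-06 and 2.84e-06), and Fabp4 by 3.25 and 4.50 (0.0162 and 0.00126). Of 6 melanocyte markers only Mitf was tested. Adipoq, the other adipocyte marker tested, differed by -0.33 in K14ΔNLef1 and -0.05 in WT (adjusted p = 0.407 and 0.91) and was not called. The part of other cell types in the results was not tested. In bulk samples, fewer cells of a type and less RNA per cell cannot be told apart.

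A gene's value was the median log2 intensity over its probe sets, of which members had between 1 and 71, with a median of 14. The arrays' own medians ran between 7.35 and 7.63, and values near or under them are close to background here. A gene was tested if it exceeded the array median on at least 3 of the 12 arrays, and it was called if its limma p-value, adjusted by Benjamini-Hochberg over all 5712 genes tested, was under 0.05. Of the 77 members, 33 were tested and 44 were not, so counts below concern the 33. A gene at background in some groups could pass through the others alone: Col4a4 and Col5a1 passed only through WT CD34+ITGA6+ arrays, Col1a2, Col6a1, Adamts7 and Col11a1 only through CD34+ITGA6+ arrays and Col4a6 only through ITGA6+ arrays, so their differences between those groups are given as descriptions. Since a group mean near background hides part of a difference, fold values are given only where both groups lay above it, and levels of different genes were not ranked.

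Most collagen genes passed the filter in these keratinocytes, and most genes for proteases and cross-linking enzymes did not. Passing it does not show a level clear of background: of the 33 tested members, 12 exceeded the median on all 12 arrays. Of 32 collagen genes 23 were tested, against 2 of 21 MMP genes, Mmp2 and Mmp14, beside 5712 of all 11287 genes. All 4 lysyl oxidase-like genes, 5 of 7 laminin chains, 4 of 6 ADAMTS proteases and 2 of 4 TIMPs stayed under the filter. Of the 44 untested members 42 lay above the median on no array, and their group means ran between 3.56 and 7.38. The other 2 were Col4a1, above it on 2 arrays, and Col25a1, above it on 1. The plot of levels by family shows fibrillar collagens close to the array medians and collagen XVII far above them.

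**Figure D1:**
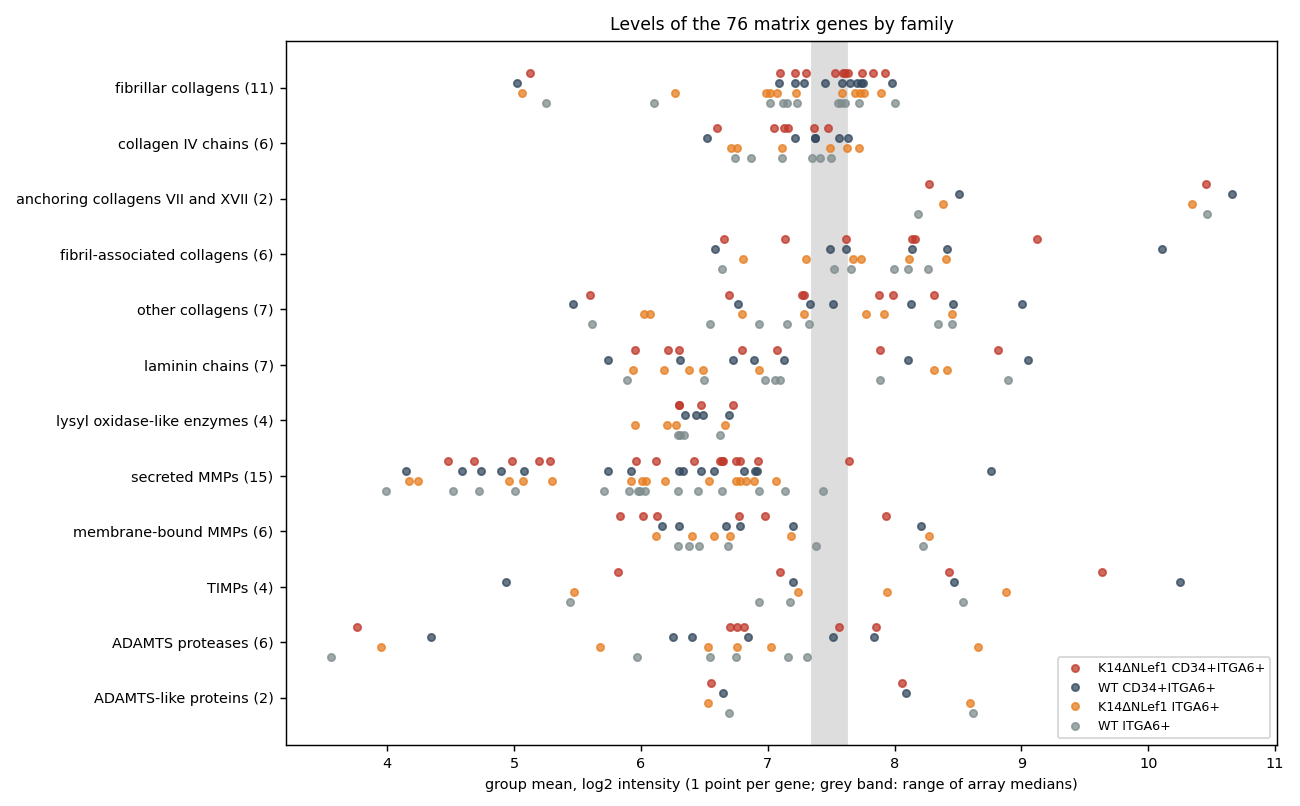
Group means of the 76 matrix genes by family, 1 point per gene and group, on the log2 intensity scale (horizontal axis), with the number of genes in brackets. The grey band spans the array medians, 7.35 to 7.63; all 4 lysyl oxidase-like genes and all but 1 of the 15 secreted MMPs lie below it, while Col17a1 lies above 10 in every group.

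The test called 10 members in at least 1 of 5 comparisons: Col6a1, Col12a1, Col18a1, Col1a2, Col4a4, Col4a6, Col16a1, Mmp2, Timp2 and Adamts1. The other 23 tested members were called in none. RefSeq promoters (assembly GRCm38.p6, which is not the build of the arrays) were listed for 56 of the 77 members and for 8 of these 10. They were searched on both strands for a TCF/LEF motif, to which Lef1 binds (CTTTGAA, or the same letters with T in place of either or both of the final bases), an AP-1 motif (TGACTCA) and a GC box (GGGCGG), none of which contains another. The TCF/LEF motif occurred in 16.9% of all 32851 promoters of 300 bases, in 13 of 62 member promoters (21%) and in 1 of 9 promoters of called members, that of Adamts1. The AP-1 motif occurred in 5.2% of all promoters, in 8 member promoters (12.9%) and in 1 of the 9, that of Col6a1. The GC box occurred in 35.7% of all promoters, in 34 member promoters (54.8%) and in 6 of the 9. A match describes letters and is no evidence of binding. The 250 bases before the start are shown for Col6a1, which was called between genotypes in CD34+ITGA6+ cells, Adamts1, the one member called in ITGA6+ cells, and Timp2, which was called between populations in both genotypes. All 3 lie on the minus strand, at chr10:76726045-76726294 (Col6a1), chr16:85803114-85803363 (Adamts1) and chr11:118355412-118355661 (Timp2). Capitals mark the AP-1 motif in Col6a1, 90 to 84 bases before the start, and the TCF/LEF motif in Adamts1, 218 to 212 bases before it, and Timp2 has neither.
Col6a1: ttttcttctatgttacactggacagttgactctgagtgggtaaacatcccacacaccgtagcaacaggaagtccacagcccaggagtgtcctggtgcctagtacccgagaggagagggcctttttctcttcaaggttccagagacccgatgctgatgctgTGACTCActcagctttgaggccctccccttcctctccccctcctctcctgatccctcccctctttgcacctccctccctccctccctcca
Adamts1: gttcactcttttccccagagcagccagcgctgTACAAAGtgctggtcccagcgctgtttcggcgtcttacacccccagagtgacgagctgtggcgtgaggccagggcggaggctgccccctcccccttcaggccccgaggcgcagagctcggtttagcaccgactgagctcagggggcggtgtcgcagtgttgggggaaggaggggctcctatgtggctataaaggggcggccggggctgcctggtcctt
Timp2: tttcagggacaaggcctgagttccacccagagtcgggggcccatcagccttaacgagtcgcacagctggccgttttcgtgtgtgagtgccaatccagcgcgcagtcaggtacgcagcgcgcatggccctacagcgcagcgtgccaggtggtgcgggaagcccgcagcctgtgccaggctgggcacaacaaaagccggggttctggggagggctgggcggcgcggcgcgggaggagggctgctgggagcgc

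The first question was what the transgene changed in CD34+ITGA6+ cells, the bulge gate. Col6a1, Col12a1 and Mmp2 were lower in K14ΔNLef1 than in WT, and no member was higher. These were 3 of 33 members called lower, beside 1.21% of all genes tested, and 0 called higher, beside 0.7% of all genes. The arrays of both genotypes did not overlap for 8 members, all lower in K14ΔNLef1 (Col12a1, Col16a1, Col18a1, Col4a4, Col5a1, Col6a1, Mmp2 and Timp2), where 7.76% of all genes were lower and 4.9% higher in this way. Col4a4 and Col5a1 were tested only because the WT arrays of this gate exceeded the medians. The median difference was -0.063 over the 33 members and -0.028 over all genes.

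Col6a1 encodes the α1 chain of collagen VI, which forms beaded microfilaments next to basement membranes. It measured 7.71, 7.30 and 6.81 in K14ΔNLef1 CD34+ITGA6+ cells, against 9.11, 8.61 and 9.31 in WT CD34+ITGA6+ cells. In ITGA6+ cells it measured 6.17, 5.94 and 5.96 in K14ΔNLef1 and 6.63, 6.43 and 6.58 in WT. The WT CD34+ITGA6+ arrays stood above all 9 others, and the K14ΔNLef1 arrays of that gate reached only the neighbourhood of the array medians. The difference in CD34+ITGA6+ cells was -1.74 ± 0.24 (log2, SE; adjusted p = 0.000873 by limma), and all 23 probe sets of the gene were lower. It passed the filter through 3 WT arrays and 1 K14ΔNLef1 array of that gate. In ITGA6+ cells, where both genotypes were near background, it was -0.52 (adjusted p = 0.308). The call held in all 14 alternatives run, with an adjusted p of at most 0.0129.

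Col12a1 encodes collagen XII, which binds to the surface of collagen I fibrils. Its values were 9.12, 8.67 and 9.57 in K14ΔNLef1 CD34+ITGA6+ cells, against 10.05, 10.01 and 10.26 in WT CD34+ITGA6+ cells. In ITGA6+ cells they were 7.40, 7.22 and 7.29 in K14ΔNLef1 and 7.45, 7.85 and 7.67 in WT. Both genotypes thus stood clear of background in CD34+ITGA6+ cells, without overlap, and the level was 1.98-fold lower in K14ΔNLef1 (-0.99 ± 0.22, SE; adjusted p = 0.0267 by limma). Of its 61 probe sets 60 were lower. The call was lost in 8 of 14 alternatives: leaving out K14ΔNLef1 CD34+ITGA6+ array 1 or 2 gave an adjusted p of 0.0789 or 0.109, and leaving out WT CD34+ITGA6+ array 1, 2 or 3 gave 0.0823, 0.06 or 0.101.

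Mmp2 encodes gelatinase A, a secreted protease that cuts denatured collagen and collagen IV. It measured 7.52, 7.32 and 8.09 in K14ΔNLef1 CD34+ITGA6+ cells, against 8.63, 8.89 and 8.75 in WT CD34+ITGA6+ cells. Its ITGA6+ values were 6.75, 7.39 and 7.06 in K14ΔNLef1 and 7.62, 7.35 and 7.35 in WT. WT CD34+ITGA6+ cells were the one group in which all arrays were clearly above the medians. The difference in that gate was -1.11 ± 0.23 (log2, SE; adjusted p = 0.0164 by limma), with 15 of 16 probe sets lower, and in ITGA6+ cells it was -0.37 (adjusted p = 0.495). Without K14ΔNLef1 CD34+ITGA6+ array 1 or 2 or WT CD34+ITGA6+ array 2 the adjusted p rose to 0.0674, 0.0772 or 0.0662.

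Collagens XVIII, IV, V and XVI followed with smaller differences in the bulge gate, none called. Col18a1, the source of the fragment endostatin, measured 7.89, 8.04 and 8.02 in K14ΔNLef1 and 8.38, 8.38 and 8.62 in WT (-0.47 ± 0.18, adjusted p = 0.305 by limma). Col4a4, a collagen IV chain of specialised basement membranes, measured 7.13, 7.15 and 7.21 in K14ΔNLef1 and 7.54, 7.62 and 7.73 in WT (-0.47 ± 0.15, adjusted p = 0.205). For these genes the genotypes did not overlap, but the differences did not pass the adjusted test. Col5a1, which starts collagen I fibrils, differed by -0.40 (adjusted p = 0.345) and Col16a1, a fibril-associated collagen, by -0.35 (adjusted p = 0.479).

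**Figure D2:**
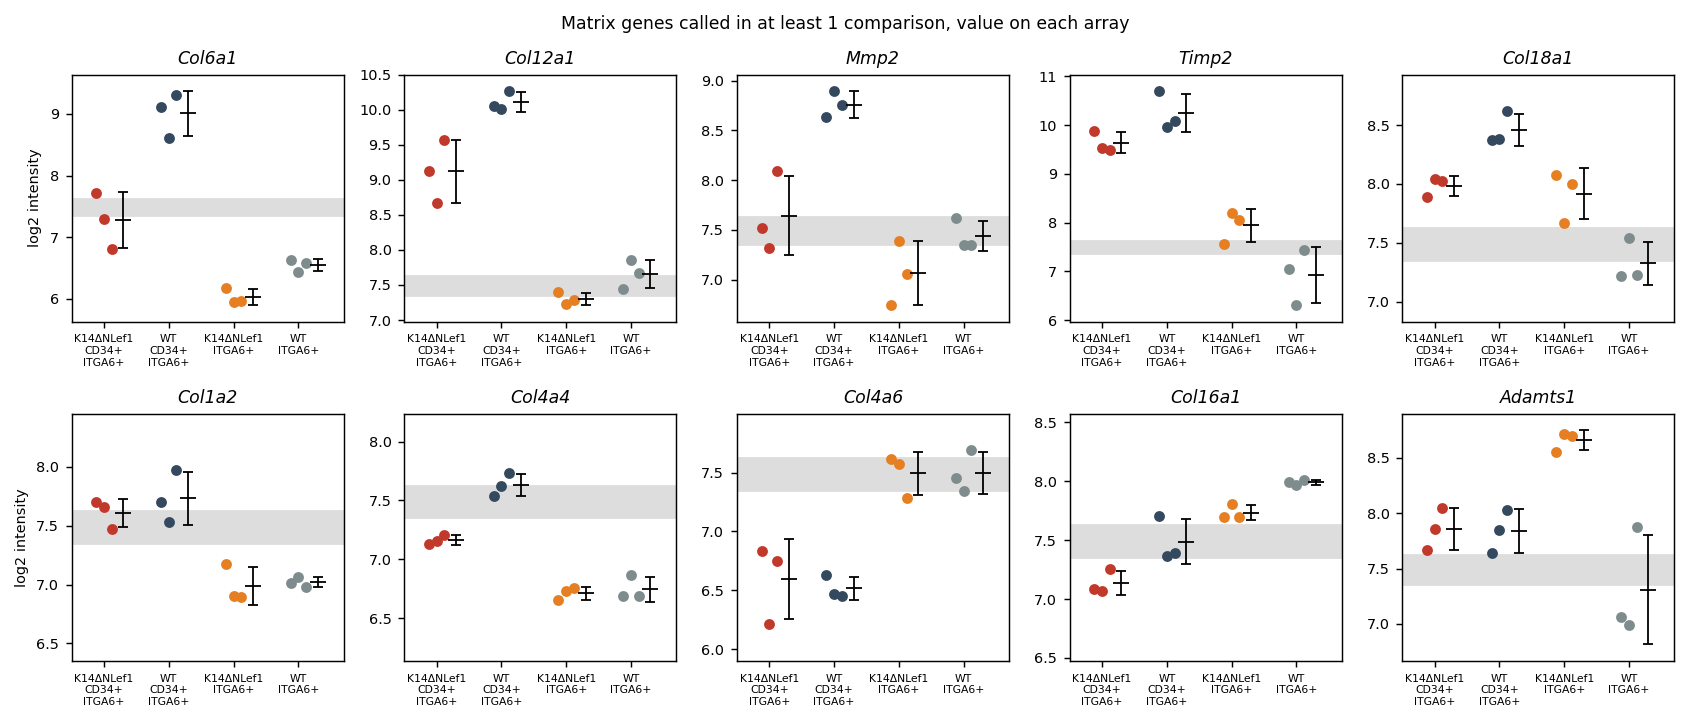
Log2 intensity (vertical axis) of the 10 called members on each of the 12 arrays, by group, with the mean and SD (n = 3) beside the points and the array medians as a grey band. Axes differ between genes; Col6a1 lay at 6.81 to 7.71 in K14ΔNLef1 CD34+ITGA6+ cells, against 8.61 to 9.31 in WT, and Adamts1 at 8.56 to 8.72 in K14ΔNLef1 ITGA6+ cells, against 6.99 to 7.88 in WT.

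The second question was what the transgene changed in ITGA6+ cells. Adamts1, a secreted protease that cuts proteoglycans such as versican, was higher in K14ΔNLef1, and no member was lower. This was 1 of 33 members called higher, beside 2.08% of all genes tested, and 0 called lower, beside 3.22%. Arrays did not overlap for 7 members that were higher in K14ΔNLef1 (Adamts1, Col11a2, Col18a1, Col4a5, Col7a1, Lamc1 and Timp2; 9.42% of all genes) and 5 that were lower (Col12a1, Col16a1, Col5a1, Col6a1 and Lamb3; 13.2% of all genes). The median difference was 0.003 over the members and -0.034 over all genes.

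Adamts1 measured 8.56, 8.72 and 8.70 in K14ΔNLef1 ITGA6+ cells, against 7.06, 6.99 and 7.88 in WT ITGA6+ cells. In CD34+ITGA6+ cells it measured 7.67, 7.86 and 8.04 in K14ΔNLef1 and 7.64, 7.85 and 8.03 in WT. The K14ΔNLef1 ITGA6+ arrays were the highest of the 12, and WT ITGA6+ array 3 stood apart from the other two of its group. The difference was 1.35 ± 0.23 in ITGA6+ cells (log2, SE; adjusted p = 0.00233 by limma; 14 of 15 probe sets higher) and 0.02 ± 0.23 in CD34+ITGA6+ cells (95% interval -0.48 to 0.51). The call in ITGA6+ cells held in all 13 alternatives, with an adjusted p of at most 0.0174.

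Timp2 encodes an inhibitor that also takes part in activating the precursor of Mmp2 at the cell surface. It measured 9.88, 9.53 and 9.50 in K14ΔNLef1 CD34+ITGA6+ cells, against 10.70, 9.97 and 10.09 in WT CD34+ITGA6+ cells. The ITGA6+ arrays gave 7.56, 8.21 and 8.06 in K14ΔNLef1, against 7.05, 6.31 and 7.44 in WT. The genotypes did not overlap in either gate, with K14ΔNLef1 below WT in the first and above it in the second, and all 8 probe sets went the same way within each gate. Neither difference was called: it was -0.62 ± 0.29 in CD34+ITGA6+ cells (SE; adjusted p = 0.507 by limma) and 1.01 ± 0.29 in ITGA6+ cells (adjusted p = 0.0606). Without WT ITGA6+ array 3 the ITGA6+ difference was 1.26 with an adjusted p of 0.0329, and it also passed with each array centred on its median (adjusted p = 0.0344).

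The genotype effects in the 2 gates were then compared directly. No member was called for this difference, 0 of 33, beside 1.54% of all genes tested (6 members had an unadjusted p under 0.05). Col18a1 came closest: in ITGA6+ cells it measured 8.08, 7.67 and 8.0 in K14ΔNLef1 and 7.21, 7.54 and 7.22 in WT, so that its genotypes, like those of Timp2, differed in opposite directions in the 2 gates. The difference of the effects, CD34+ITGA6+ minus ITGA6+, was -1.06 ± 0.25 for Col18a1 (SE; adjusted p = 0.0513 by limma), -1.33 ± 0.32 for Adamts1 (adjusted p = 0.0596), -1.62 ± 0.41 for Timp2 (adjusted p = 0.0694) and -1.21 ± 0.34 for Col6a1 (adjusted p = 0.113). These values lie near the threshold and moved across it with the processing. With each array centred on its median, Adamts1, Col18a1 and Timp2 passed (adjusted p = 0.042, 0.0417 and 0.0446). Adamts1 also passed with the replicate number as a block over all arrays (0.0326) or within genotype (0.0354). The mean over probe sets let Adamts1, Col6a1 and Timp2 pass (0.013, 0.000933 and 0.0373), and the use of brighter probe sets let Adamts1 and Col6a1 pass (0.0275 and 0.00849). No member passed without the filter or with the stricter one. Without WT ITGA6+ array 3, Adamts1 and Timp2 passed (0.00802 and 0.0388), without K14ΔNLef1 ITGA6+ array 2 Col18a1 did (0.0423), and without K14ΔNLef1 CD34+ITGA6+ array 1 Col6a1 did (0.0472).

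**Figure D3:**
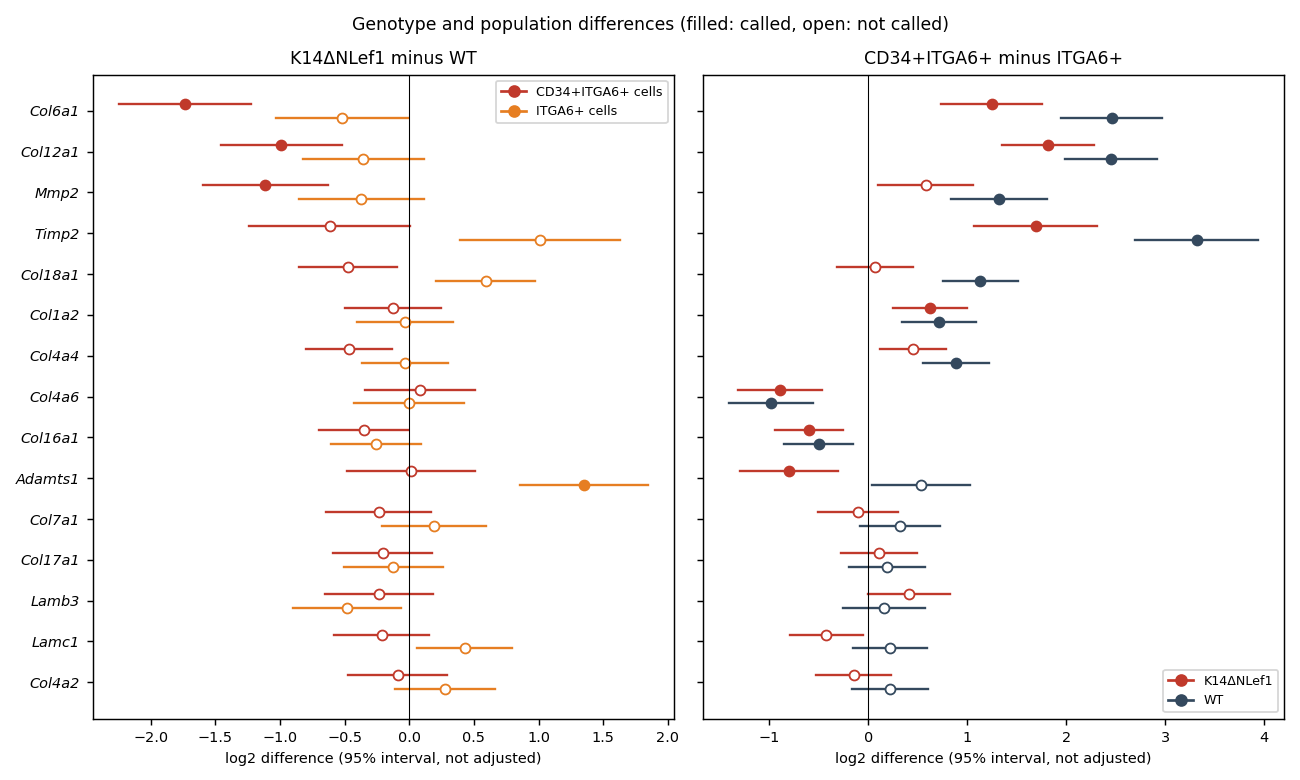
Log2 differences with unadjusted 95% intervals (horizontal axis) for the 10 called members and 5 basement membrane genes: K14ΔNLef1 minus WT in each gate (left) and CD34+ITGA6+ minus ITGA6+ in each genotype (right). Filled points were called; Col6a1 differed by -1.74 in the bulge gate and -0.52 in ITGA6+ cells, and Timp2 by 1.69 between gates in K14ΔNLef1 and 3.32 in WT.

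The third question was how the 2 populations differ within a genotype. In WT mice, CD34+ITGA6+ cells had more transcript for 5 collagen genes, Mmp2 and Timp2 than ITGA6+ cells, and less for Col4a6 and Col16a1. In K14ΔNLef1 mice, Col6a1, Col12a1, Col1a2 and Timp2 were higher in CD34+ITGA6+ cells, and Col4a6, Col16a1 and Adamts1 were lower. In K14ΔNLef1, 4 of 33 members were called higher (4.62% of all genes) and 3 lower (8.28%). In WT, 7 members were called higher (5.72% of all genes) and 2 lower (11.5%). The arrays of the populations did not overlap for 7 higher members (9.12% of all genes) and 8 lower ones (22.8%) in K14ΔNLef1, and for 10 higher (9.47%) and 4 lower (22.4%) in WT. Of the members counted as higher, Col1a2, Col4a4, Col6a1, Col5a1 and Adamts7 were tested only through CD34+ITGA6+ arrays. Col4a6, counted as lower, was tested only through ITGA6+ arrays. For these genes the counts are descriptions. The median difference was 0.01 in K14ΔNLef1 and 0.16 in WT over the members, and -0.15 and -0.17 over all genes tested. With each array centred on its median the last pair became -0.07 and -0.08. The CD34+ITGA6+ arrays here are those of the first question, and the values are the same ones set against another group. The fibroblast marker Fbln1, also a matrix protein of basement membranes, was higher in CD34+ITGA6+ cells of WT mice (2.37 ± 0.27, adjusted p = 2.21e-05 by limma), while Vim and Clec3b, the other fibroblast markers tested, were called in no comparison.

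Timp2, Col6a1 and Col12a1, whose array values stand above, were higher in the bulge gate in both genotypes. ITGA6+ cells lay under the array medians for Col6a1 in both genotypes, for Timp2 in WT and for Col12a1 in K14ΔNLef1, which limits the size of those differences. In K14ΔNLef1 and WT mice they were 1.69 ± 0.29 and 3.32 ± 0.29 for Timp2 (SE; adjusted p = 0.00125 and 2.78e-06 by limma). For Col6a1 they were 1.25 ± 0.24 and 2.46 ± 0.24 (adjusted p = 0.00279 and 7.01e-06), and for Col12a1 1.82 ± 0.22 and 2.45 ± 0.22 (adjusted p = 6.31e-05 and 3.04e-06). Col6a1 passed the filter only through CD34+ITGA6+ arrays, so its differences are a description. Without the filter both passed (adjusted p = 0.00538 and 1.91e-05). CD34+ITGA6+ arrays lay above all ITGA6+ arrays of the same genotype for all 3 genes, and all 61 probe sets of Col12a1 were higher in WT. Mmp2 was called in WT (1.32 ± 0.23, adjusted p = 0.000812), and in K14ΔNLef1 the populations overlapped (0.58 ± 0.23, adjusted p = 0.112). Col18a1 was called in WT (1.13 ± 0.18, adjusted p = 0.000412), while in K14ΔNLef1 its difference was 0.07 (95% interval -0.31 to 0.45).

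Col1a2, the α2 chain of collagen I, measured 7.70, 7.66 and 7.47 in CD34+ITGA6+ and 7.17, 6.90 and 6.89 in ITGA6+ cells of K14ΔNLef1 mice. In WT mice it measured 7.70, 7.53 and 7.97 in CD34+ITGA6+ and 7.01, 7.06 and 6.98 in ITGA6+ cells. It was higher in the bulge gate in both genotypes, without overlap (0.62 ± 0.17 in K14ΔNLef1, adjusted p = 0.0293 by limma, and 0.71 ± 0.17 in WT, adjusted p = 0.01), at levels near the array medians. It passed the filter only through the 6 CD34+ITGA6+ arrays, so these differences are a description. Without the filter both passed (adjusted p = 0.0415 and 0.0148). The K14ΔNLef1 call was lost without CD34+ITGA6+ array 1 or 2 (adjusted p = 0.0756 or 0.0876) or ITGA6+ array 2 or 3 (0.0955 or 0.103). Its partner Col1a1 was tested and called in no comparison.

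The collagen IV chains divided. Col4a4 was higher in CD34+ITGA6+ cells of WT mice, where it measured 7.54, 7.62 and 7.73, against 6.68, 6.86 and 6.68 in ITGA6+ cells (0.89 ± 0.15, adjusted p = 0.000943 by limma). In K14ΔNLef1 mice it measured 7.13, 7.15 and 7.21 in CD34+ITGA6+ cells, against 6.65, 6.73 and 6.75 in ITGA6+ cells (0.45 ± 0.15, adjusted p = 0.0704). The gates did not overlap in either genotype. Col4a4 passed the filter only through the 3 WT CD34+ITGA6+ arrays, and without the filter its WT difference passed (adjusted p = 0.00142). Col4a6, a collagen IV chain of the epidermal basement membrane, ran the other way. It measured 6.83, 6.21 and 6.75 in CD34+ITGA6+ cells, against 7.62, 7.57 and 7.29 in ITGA6+ cells of K14ΔNLef1 mice (-0.89 ± 0.20, adjusted p = 0.0079). In WT mice it measured 6.63, 6.47 and 6.46, against 7.45, 7.35 and 7.69 (-0.98 ± 0.20, adjusted p = 0.003). All CD34+ITGA6+ arrays lay under the array medians, so its level there is bounded only from above. It passed the filter only through 3 ITGA6+ arrays, and without the filter both differences passed (adjusted p = 0.0135 and 0.00525). Both Col4a6 calls held in all 14 alternatives run, and so did the Col4a4 call in WT in all 13.

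Col16a1 encodes a fibril-associated collagen. It measured 7.08, 7.07 and 7.25 in CD34+ITGA6+ and 7.70, 7.81 and 7.70 in ITGA6+ cells of K14ΔNLef1 mice (-0.60 ± 0.16, adjusted p = 0.0249 by limma). In WT mice it measured 7.71, 7.37 and 7.39 in CD34+ITGA6+ and 8.0, 7.97 and 8.01 in ITGA6+ cells (-0.50 ± 0.16, adjusted p = 0.0459). The gates did not overlap in either genotype, but both calls depended on single arrays. The WT call was lost in 12 of 14 alternatives, including a fit with replicate number as a block within genotype (adjusted p = 0.0674), in which same-numbered WT arrays are paired. Leaving out WT CD34+ITGA6+ array 2 or 3 gave 0.145 or 0.101, and WT ITGA6+ array 1, 2 or 3 gave 0.092, 0.102 or 0.117. The K14ΔNLef1 call was lost without CD34+ITGA6+ array 1 or 2 (0.0626 or 0.0809) or ITGA6+ array 1, 2 or 3 (0.066, 0.0844 or 0.0629).

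Adamts1 was the one called member whose population difference had opposite signs in the genotypes. In K14ΔNLef1 mice it was lower in the bulge gate (-0.80 ± 0.23, adjusted p = 0.0329 by limma), and in WT mice the difference was 0.53 ± 0.23 and was not called (adjusted p = 0.138). The K14ΔNLef1 call was lost without CD34+ITGA6+ array 1 or 2 (adjusted p = 0.0939 or 0.0859) or ITGA6+ array 1, 2 or 3 (0.0673, 0.0912 or 0.0952). Without WT ITGA6+ array 3 the WT difference was 0.82 and passed (adjusted p = 0.0147). The test of whether these 2 differences differ is the one given above for the genotype effects.

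Col17a1, Col7a1, Lamb3, Lamc1 and Col4a2, structural genes of basement membranes, were called in no comparison. Col17a1, the hemidesmosomal collagen, measured 10.43, 10.65 and 10.28 in K14ΔNLef1 CD34+ITGA6+ cells and 10.82, 10.60 and 10.55 in WT CD34+ITGA6+ cells. In ITGA6+ cells it measured 10.25, 10.54 and 10.24 in K14ΔNLef1 and 10.39, 10.66 and 10.35 in WT. All 12 arrays lay within a narrow range and the groups overlapped in every comparison. Its genotype difference was -0.20 in CD34+ITGA6+ cells (95% interval -0.59 to 0.18) and -0.12 in ITGA6+ cells (-0.51 to 0.26).

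Col7a1, the anchoring fibril collagen, measured 8.41, 8.16 and 8.25 in K14ΔNLef1 and 8.90, 8.30 and 8.32 in WT CD34+ITGA6+ cells. The ITGA6+ arrays read 8.31, 8.35 and 8.47 in K14ΔNLef1 and 8.26, 8.06 and 8.25 in WT. Its genotype difference was -0.23 (95% interval -0.64 to 0.17) in the first gate and 0.19 (-0.21 to 0.60) in the second. One WT array of the bulge gate stood above the rest, and the ITGA6+ groups did not overlap although the test did not call them.

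Lamb3, the β3 chain of the hemidesmosome's laminin, measured 9.08, 8.77 and 8.61 in K14ΔNLef1 and 8.97, 8.92 and 9.26 in WT CD34+ITGA6+ cells. In ITGA6+ cells it measured 8.28, 8.65 and 8.30 in K14ΔNLef1, against 8.70, 8.89 and 9.10 in WT. The genotypes overlapped in the bulge gate and not in ITGA6+ cells, where the difference was -0.48 (95% interval -0.90 to -0.07, adjusted p = 0.225 by limma). Lamc1, the γ1 chain shared by most other laminins, differed the other way there, by 0.43 (95% interval 0.06 to 0.80, adjusted p = 0.226). Neither passed the adjusted test.

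Col4a1 and Col4a2 encode the main collagen IV chains and lay near the array medians. Col4a2 measured 7.50, 7.48 and 7.43 in K14ΔNLef1 and 7.74, 7.37 and 7.58 in WT CD34+ITGA6+ cells. In ITGA6+ cells it measured 7.83, 7.65 and 7.38 in K14ΔNLef1 and 7.51, 7.23 and 7.29 in WT. The groups overlapped in all comparisons. Col4a1 exceeded the median on 2 arrays and was not tested: it measured 7.64, 7.11 and 6.64 in K14ΔNLef1 and 7.64, 7.14 and 7.34 in WT CD34+ITGA6+ cells, and between 6.87 and 7.37 on the ITGA6+ arrays.

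**Figure D4:**
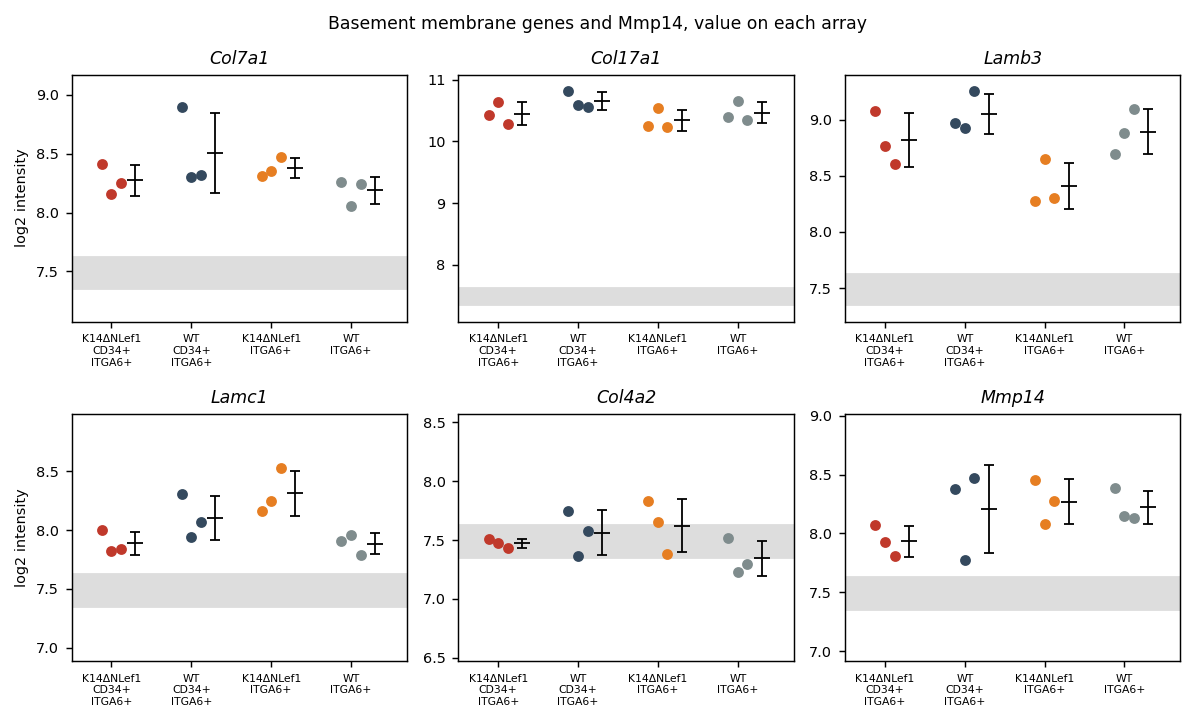
Log2 intensity (vertical axis) of 5 basement membrane genes and Mmp14 on each of the 12 arrays, by group, with the mean and SD (n = 3) beside the points and the array medians as a grey band. Axes differ between genes; none was called in any comparison, and Col17a1 lay between 10.24 and 10.82 on all arrays.

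Mmp14, the membrane-bound protease that activates the Mmp2 precursor, exceeded the median on all 12 arrays and was called in no comparison. Its genotype difference was -0.27 in CD34+ITGA6+ cells (95% interval -0.71 to 0.17) and 0.05 in ITGA6+ cells (-0.39 to 0.49). Timp3, an inhibitor bound to the matrix, likewise exceeded the median on all arrays, with genotype differences of -0.04 (95% interval -0.60 to 0.52) and 0.34 (-0.22 to 0.91). A p that misses the threshold does not show equal levels. Among the 44 untested members, all under or near the medians, a fit without the filter (11287 genes) also called 5. The shares of all genes called there were 2.88% between genotypes in ITGA6+ cells and 6.88% and 9.57% between populations in K14ΔNLef1 and WT. It called Lama1, lower in K14ΔNLef1 ITGA6+ cells at 6.52, 6.37 and 6.25, against 7.12, 7.11 and 7.05 in WT ITGA6+ cells. It also called Col5a2 higher in the bulge gate, at 7.06, 7.17 and 7.06 against 6.43, 6.23 and 6.14 in ITGA6+ cells of K14ΔNLef1 mice, and 6.98, 7.03 and 7.25 against 6.03, 6.05 and 6.23 in WT mice. Lama1 encodes a laminin α chain and Col5a2 a chain of collagen V. In K14ΔNLef1 mice it called Adamts5, an aggrecan-cutting protease, higher in CD34+ITGA6+ cells (6.99, 6.63 and 6.47, against 5.51, 5.88 and 5.64 in ITGA6+ cells) and Lama4, another laminin α chain, likewise (6.89, 6.94 and 7.38, against 6.13, 6.40 and 6.02). In WT mice it called Lama1 lower in CD34+ITGA6+ cells (6.35, 6.30 and 6.28, against 7.12, 7.11 and 7.05 in ITGA6+ cells) and Mmp3, a stromelysin, lower (5.13, 5.19 and 4.93, against 5.87, 5.81 and 6.24). All these values lie under the array medians, and no size is read from them.

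Other genes of the matrix were taken as lists, whose counts stand beside the shares of all tested genes called higher and lower given above: 0.7% and 1.21% between genotypes in the bulge gate, 2.08% and 3.22% between them in ITGA6+ cells, 4.62% and 8.28% between populations in K14ΔNLef1, and 5.72% and 11.5% in WT. Of 21 genes for collagen modification and processing, 8 were tested. In CD34+ITGA6+ cells 2 were lower in K14ΔNLef1 and none was higher. Pcolce2, which speeds the trimming of procollagen by BMP1-type proteases, measured 6.68, 5.48 and 5.64 in K14ΔNLef1 CD34+ITGA6+ cells, against 9.91, 10.44 and 10.58 in WT CD34+ITGA6+ cells (-4.38 ± 0.29, SE; adjusted p = 1.18e-06 by limma). Tll1, a protease of that type, measured 6.48, 5.42 and 5.83 in K14ΔNLef1, against 7.54, 8.31 and 8.46 in WT (-2.19 ± 0.33, adjusted p = 0.0021). Both passed the filter only through the WT CD34+ITGA6+ arrays and lay under the array medians in the other 3 groups, and the genotypes did not overlap in the bulge gate. In the population comparisons, 2 were higher and 1, P4ha1, a collagen prolyl hydroxylase, lower in K14ΔNLef1, and 2 were higher and none lower in WT. The higher genes were Pcolce2 and Tll1 in both genotypes, and these differences are descriptions. In WT the higher group is the one through which both genes passed the filter. In K14ΔNLef1 both groups lay under the array medians.

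Of 24 other matrix and basement membrane glycoproteins, 15 were tested. In CD34+ITGA6+ cells Fn1 (3.36 ± 0.34) and Thbs1 (1.33 ± 0.26) were higher in K14ΔNLef1, and Tnc (-1.56 ± 0.24) and Sparc (-1.34 ± 0.26) were lower (adjusted p = 5.6e-05, 0.0134, 0.00242 and 0.0143 by limma). Tnc passed the filter only through the 3 WT CD34+ITGA6+ arrays, so its difference is a description. Fn1, fibronectin, measured 10.19, 8.77 and 9.72 in K14ΔNLef1 CD34+ITGA6+ cells, against 6.35, 6.08 and 6.18 in WT, a group below background. In ITGA6+ cells 3 were higher in K14ΔNLef1, Fn1 (1.92), Fbln1 (1.61) and Sparc (1.32). The 2 lower ones were Ecm1, which had the lowest adjusted p of these, and Egfl6 (-1.81), a matrix protein laid down by bulge cells. Sparc, a collagen-binding protein, was thus lower in the bulge gate and higher in ITGA6+ cells. Between populations 5 were higher in CD34+ITGA6+ cells and 1 lower in K14ΔNLef1, and 7 higher and 1 lower in WT. Those with the lowest adjusted p, in either direction, were Egfl6, Ccn2, Ecm1 and Thbs1 in K14ΔNLef1. In WT they were Ccn2, Fbln1, Postn and Ecm1. The WT count of higher genes includes Tnc, which was tested only through that higher group.

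Of 17 collagen and laminin receptors 12 were tested, and Itga2, a collagen receptor subunit, was lower in K14ΔNLef1 ITGA6+ cells (-1.15 ± 0.24, adjusted p = 0.0104 by limma); none was called between genotypes in CD34+ITGA6+ cells. Of 22 other pericellular proteases and inhibitors 11 were tested. Htra1, a secreted serine protease, was higher in K14ΔNLef1 CD34+ITGA6+ cells (1.87 ± 0.26, adjusted p = 0.00114), and Serpine2, an inhibitor of serine proteases, was higher in K14ΔNLef1 ITGA6+ cells (3.0 ± 0.40, adjusted p = 0.000278). Serpine2 passed the filter only through the 3 K14ΔNLef1 ITGA6+ arrays and lay under the array medians elsewhere, so its difference is a description. No other gene of that list was called between genotypes in either gate.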

How the data were processed

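Affymetrix Mouse Exon ST arrays of 12 sorted samples were analysed. The authors deposited RMA-normalised intensities, not logged, for each probe set on each array. The submitters' notes name RMA, Affymetrix Power Tools and build mm9, with no version, and no source used here gives the rule that chose the 114330 probe sets. RMA removes part of any shift shared by most genes, and the RNA had been amplified, so differences need not keep their proportion. Arrays have no read depth, and their number limits the precision.

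Intensities were turned to log2. Of the probe sets, 109796 had 1 gene symbol, 836 several and 3698 none. Of 11297 symbols, 10030 were current in RefSeq (GRCm38.p6), 1240 were replaced and 27 kept. Col26a1 and Col6a6 stood under older symbols outside the pattern and were not counted as members. Gene values were medians over probe sets, and 5712 genes passed the filter. In limma 3.58.1 (R 4.3.3) 1 model with group means took in all 12 arrays (8 residual degrees of freedom before moderation), and the scripts were tested on simulated data. Arrays of a group correlated with Pearson's r of 0.909 to 0.936. Standard errors are limma's moderated ones, and 95% intervals are not adjusted.

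Members and lists were chosen with earlier results of these data known. All called members are named, and array values are given for up to 6 called members with the largest differences per comparison and for the epidermal basement membrane genes. Up to 4 called genes per other list and comparison are named, with Sparc in ITGA6+ cells added. Where further members are named (Col5a1, Col11a1, Col25a1, Mmp14, Timp3, Lamc1, Adamts7, those called only without the filter and those without overlap), they were chosen after their values were seen. Replicate numbers were checked for pairing by the correlation of deviations from group means: same-numbered CD34+ITGA6+ and ITGA6+ arrays of WT mice gave 0.109, 0.119 and 0.233, so they met the rule for pairing there, from the data and not from the labels. The other comparisons had a pair at or below 0.1. K14ΔNLef1 CD34+ITGA6+ array 2 and WT ITGA6+ array 1, which cannot come from the same mouse, gave 0.165. The correlations therefore do not establish pairing. The model had no block, and a fit with one is given beside the results it changes. Alternatives were another scaling, a mean or brighter probe sets, no or a stricter filter, only the arrays compared, a replicate block and leaving out each array. Unfractionated cells were not analysed here.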

Additional observations from a re-analysis of the deposited data

Results flagged for a closer look

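In the other matrix lists, chosen with earlier results known, the genotype effect differed between the 2 gates for 7 of 46 tested genes by the test of that difference, beside 1.54% of all genes tested. The difference of effects, K14ΔNLef1 minus WT in CD34+ITGA6+ cells minus the same in ITGA6+ cells, was -4.31 ± 0.41 for Pcolce2 (log2, SE; adjusted p = 5.48e-05 by limma), from -4.38 in the bulge gate and -0.07 in ITGA6+ cells. Pcolce2 and Tnc exceeded the array medians on the 3 WT CD34+ITGA6+ arrays alone and Serpine2 on the 3 K14ΔNLef1 ITGA6+ arrays alone, so their values elsewhere, -0.07 among them, are limited by background. These genes passed the filter only through the group in which they were high. Their differences, and the count of 7 that includes them, are therefore descriptions. For Sparc the difference of effects was -2.66 ± 0.38 (adjusted p = 0.00147), with -1.34 and 1.32 in the 2 gates. For Tnc it was -2.06 ± 0.34 (adjusted p = 0.00597), with -1.56 and 0.49. For Htra1 it was 2.22 ± 0.37 (adjusted p = 0.00655), with 1.87 and -0.35. Serpine2 gave -2.76 ± 0.56 and Fbln1 -1.85 ± 0.38 (adjusted p = 0.0209 each), with 3.0 and 1.61 in ITGA6+ cells and 0.24 and -0.25 in the bulge gate. Egfl6 gave 2.09 ± 0.44 (adjusted p = 0.0259), with 0.28 in the bulge gate and -1.81 in ITGA6+ cells.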

How the results depend on the processing

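Of 20 calls of members, 13 held in every alternative run, and of 283 alternative values of called members 242 kept their call, 41 lost it and 0 changed sign. The number of members called for the difference of effects between gates, 0 as reported, was 3 with median centring of each array, 2 with quantile normalization, 3 with the mean over probe sets, 2 with brighter probe sets only, 1 with a replicate block and 1 with the block within genotype, an alternative chosen after seeing the data. With only the 6 arrays compared, 1 member in place of 3 was called between genotypes in the bulge gate. For the genotype effect in ITGA6+ cells, 1 as reported, it was 2 with median centring, quantile normalization, the mean over probe sets or no filter. For the population differences, 7 in K14ΔNLef1 and 9 in WT as reported, it was 3 and 3 with the stricter filter, which left 7 members to test, and 9 and 11 with no filter. In K14ΔNLef1 it was also 9 with median centring, quantile normalization or the mean over probe sets. Leaving out each array in turn gave 1 to 3 members between genotypes in the bulge gate, 1 to 2 in ITGA6+ cells, 4 to 7 and 8 to 9 for the population differences in K14ΔNLef1 and WT, and 0 to 2 for the difference of effects. The stricter filter and the leaving out of arrays work with fewer genes or arrays by construction, and the cause of the other shifts was not tested. A stricter filter gave no value for members it removed, and the difference of effects uses all groups, so it had no fit on 6 arrays.

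With the replicate number as a block over all arrays, 3, 1, 7, 8 and 1 members were called in the 5 comparisons. With the block within genotype, which pairs same-numbered arrays, 7 and 8 members were called in the population differences of K14ΔNLef1 and WT; Col16a1 in WT and Adamts1 in the difference of effects (adjusted p = 0.0354) were the calls that changed. Outside WT the arrays share only a number, and in WT pairing was not established either. For 44 of 77 members the signal was too close to background to test, and a small change in them was not detectable here.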
